A study of Mus musculus with 9 samples.

Results

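The 41 genes described here encode the enzymes, transporters and kinases that take glucose to lactate, to acetyl-CoA or into the pentose phosphate pathway. They were picked by symbol as a pathway, with earlier results of these data known, and all 41 were found among the 21769 genes counted in each library. By role, 7 act in glucose and lactate transport, 9 in upper glycolysis, 6 in lower glycolysis and 2 as lactate dehydrogenases. Another 4 are phosphofructokinase-fructose bisphosphatases (PFKFB), 4 belong to the pyruvate dehydrogenase complex, 4 are its kinases and 5 act in the pentose phosphate pathway. Messenger RNA was measured by RNA sequencing of whole mouse retina in 3 groups with 3 libraries each and 2 retinae per library. The groups were wild type mice aged 48 postnatal days, rd10 mice aged 61 days and mice that express green fluorescent protein (GFP). The labels give 42 days for a line written Gg13, which was taken to be the GFP group since no other group lacks an age. The retinae of wild type and GFP mice are labelled normal and those of rd10 mice degenerated. In rd10 mice Pde6b is mutated, a subunit of the rod phosphodiesterase, and the rods are lost after birth. Age differed with genotype in every comparison, and the effects of the 2 cannot be told apart. The driver of GFP and the cells that express it are not given in the sources used here.

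Photoreceptors take up glucose from the choroid through the pigment epithelium and turn most of it into lactate even when oxygen is present, a habit known as aerobic glycolysis. The lactate leaves the cell through monocarboxylate transporters, which need the chaperone basigin at the membrane, and neighbouring Müller glia and pigment epithelium can burn it. Pyruvate that is not reduced to lactate enters mitochondria and is oxidised by the pyruvate dehydrogenase complex, which its kinases switch off, while the pentose phosphate pathway draws glucose 6-phosphate away to make NADPH and ribose.

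Total counts per library ran from 9597635 to 12149448. Levels are given in counts per 1000000 (CPM). CPM here divides counts by the library total times a scaling factor (TMM, trimmed mean of M values). A group of 9 rod markers, Gnat1 and Sag among them, summed to 40821 to 52154 CPM in wild type. They summed to 42459 to 47646 in GFP and to 369 to 828 in rd10, and 9 of 9 were lower in rd10. The 9 cone markers summed to 1441 to 1989 CPM in wild type, 1252 to 1742 in GFP and 1363 to 1427 in rd10. In rd10, 1 of these 9 was higher and 1 lower than in wild type, and 2 were higher and 2 lower than in GFP. The 10 markers of Müller glia summed to 5515 to 7425 CPM in wild type, 6384 to 7310 in GFP and 11810 to 12592 in rd10. Lens transcripts stood apart in 4 libraries: 12 lens markers summed to 3465 CPM in wild type 2, 1430 in wild type 3, 3645 in rd10 2 and 3054 in GFP 1, and to 4.38 to 36.1 in the other 5. The counts of the 41 genes and of the other pathway genes that passed were repeated without those 4 libraries, which leaves wild type 1 as the only wild type library.

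RefSeq promoters (build GRCm38.p6) were found for 38 of the 41 genes, 58 promoters in all. The 250 bases before the gene start are shown for the 5 genes that were lower in rd10 under every setting tried and for Slc16a8 and Pdk2, genes that were higher. Capitals mark the hypoxia response core, ACGTG or GCGTG on either strand (CACGT and CACGC on the strand shown), and the E-box CACGTG, which holds an ACGTG on both strands.
Hk2, chr6:82774455-82774704, minus strand: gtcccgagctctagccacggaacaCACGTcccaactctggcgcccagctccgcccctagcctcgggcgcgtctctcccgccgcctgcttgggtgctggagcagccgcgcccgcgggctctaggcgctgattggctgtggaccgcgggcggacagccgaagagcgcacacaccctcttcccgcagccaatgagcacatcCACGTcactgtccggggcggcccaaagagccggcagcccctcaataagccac
Pfkfb2, the first of 3 promoters, chr1:130715822-130716071, minus strand: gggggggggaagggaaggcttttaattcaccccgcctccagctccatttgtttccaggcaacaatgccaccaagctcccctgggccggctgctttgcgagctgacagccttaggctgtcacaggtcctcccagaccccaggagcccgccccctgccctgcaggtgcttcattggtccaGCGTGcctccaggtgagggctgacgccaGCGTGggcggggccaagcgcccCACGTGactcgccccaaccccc
Ldha, the first of 2 promoters, chr7:46845554-46845803, plus strand: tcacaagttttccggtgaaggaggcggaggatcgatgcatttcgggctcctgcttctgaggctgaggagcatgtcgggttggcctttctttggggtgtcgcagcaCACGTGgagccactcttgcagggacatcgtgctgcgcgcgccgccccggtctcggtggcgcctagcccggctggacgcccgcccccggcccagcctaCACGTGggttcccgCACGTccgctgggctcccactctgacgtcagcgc
Slc16a1, chr3:104638414-104638663, plus strand: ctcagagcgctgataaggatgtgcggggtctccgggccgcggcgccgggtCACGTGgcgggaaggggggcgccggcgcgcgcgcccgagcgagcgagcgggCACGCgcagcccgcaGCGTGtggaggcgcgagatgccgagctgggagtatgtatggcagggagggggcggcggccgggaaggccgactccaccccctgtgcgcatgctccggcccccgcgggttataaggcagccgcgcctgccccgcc
Slc16a3, chr11:120948817-120949066, plus strand: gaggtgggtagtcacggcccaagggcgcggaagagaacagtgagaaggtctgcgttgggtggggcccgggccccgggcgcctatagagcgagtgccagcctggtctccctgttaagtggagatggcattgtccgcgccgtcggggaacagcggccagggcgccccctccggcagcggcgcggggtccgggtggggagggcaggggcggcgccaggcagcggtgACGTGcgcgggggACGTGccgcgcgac
Slc16a8, chr15:79254749-79254998, minus strand: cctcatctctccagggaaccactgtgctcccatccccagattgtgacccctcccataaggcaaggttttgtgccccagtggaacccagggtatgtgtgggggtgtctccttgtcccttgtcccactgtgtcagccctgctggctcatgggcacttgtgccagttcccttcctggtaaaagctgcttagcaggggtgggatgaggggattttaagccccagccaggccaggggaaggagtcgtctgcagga
Pdk2, the first of 2 promoters, chr11:95041372-95041621, minus strand: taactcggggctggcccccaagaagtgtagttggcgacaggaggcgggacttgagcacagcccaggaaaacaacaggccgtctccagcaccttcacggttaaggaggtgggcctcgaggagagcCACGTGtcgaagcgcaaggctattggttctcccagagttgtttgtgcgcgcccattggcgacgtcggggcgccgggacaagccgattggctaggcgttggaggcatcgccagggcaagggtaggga
The 5 lower genes have between 2 and 5 matches to the hypoxia response core in these windows, both strands counted, the Slc16a8 window has 0 and the Pdk2 window 2. Windows not shown vary in the same way: the second Ldha promoter and the other 2 of Pfkfb2 have 1 each, as do those of Pfkl and Taldo1, the 4 of Pfkm, a gene that was higher, have 2, 2, 1 and 0, and those of Pgam1 and Pdha1, which did not pass against wild type, have 3 each. Of the 58 promoters, 43 (74.1%) held ACGTG or GCGTG, against 54.2% of 14224 promoters of genes tested here and 38.6% of all 32851 promoters in the table. Counted by gene, with any promoter of a gene sufficing, these were 14 of the 14 genes lower in rd10 than in wild type and 19 of the other 24, against 60.3% of 11080 tested genes with a promoter in the table and 62.8% of the 1563 of those that were lower. The Ldha, Pfkfb2, Hk1, Aldoa and Pkm2 genes among the 14 have more than 1 promoter in the table, 2, 3, 2, 3 and 2 in turn. The first promoters of Hk1, Aldoa and Pkm2 have 0 matches to the hypoxia response core. Promoters per gene averaged 1.28 over the tested genes and 1.27 over those that were lower. A gene with more promoters has more chances of a match. Some windows of the same gene overlap and share matches, as in Aldoa, Eno1 and Pfkm, so the 43 are not all separate. The E-box stood in 6 of 58 (10.3%) against 8.05% of promoters of tested genes and 6.02% of all. TAATCC, a core bound by the photoreceptor factors CRX and OTX, was in 5 of 58 (8.62%) against 5.22% and 6.25%. TGCTGAC, part of the element bound by the rod factor NRL, was in 2 of 58 (3.45%), both in promoters of Pfkfb2, against 3.12% and 3.81%. Median GC content was 60.0% in these promoters and 59.6% in those of tested genes. Such matches describe letters and are not binding sites.

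Lower messenger levels in rd10 were found for 14 of the 40 genes that could be tested and higher levels for 4. Against wild type, the genes that fell were Slc16a1, Slc16a3, Hk1, Hk2, Pfkl, Aldoa, Gapdh, Pgk1, Pkm2, Ldha, Pfkfb2, Pdhb, Pdk3 and Taldo1, and those that rose were Slc2a3, Slc16a8, Pfkm and Pdk2. Among all 14300 genes tested, 13.9% were lower and 14.5% higher in this comparison. A fall of at least 2-fold was seen for 6 genes, Slc16a1, Slc16a3, Hk1, Hk2, Ldha and Pfkfb2, and no rise reached 2-fold. Of all 14300 genes, 983 passed with a fall of at least 2-fold and 899 with a rise of that size. The median log2 fold change over the 40 was -0.37, beside -0.03 over all genes. Against GFP, 14 were again lower, among 15% of all genes, and 4 higher, among 15.2%. In that comparison Pgam1 and Rpia were lower and Slc16a7 and Tkt higher, while Pfkl, Pgk1, Slc2a3 and Pdk2 did not pass, and the median was -0.27 beside -0.02 over all genes. Both comparisons use the same rd10 libraries: 12 genes were lower in both, 2 higher in both (Slc16a8 and Pfkm) and 18 passed in neither.

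A gene passed with a Benjamini-Hochberg adjusted p under 0.05 in edgeR's quasi-likelihood test. Only Pdk4 was too low to be tested. The factors of TMM scaling (trimmed mean of M values) were 1.12 to 1.18 in rd10 and 0.894 to 0.994 in the normal libraries. Scaling by library totals gave 7 higher and 8 lower of the 40 in each comparison. It raised the median log2 fold change of all genes by 0.29 and 0.33. Over all genes it gave 3603 higher and 1079 lower than wild type, beside 2067 and 1988 in the main fit. Against GFP it gave 4040 and 1055, beside 2174 and 2138. Without the 4 libraries with lens transcripts, 0 were higher and 5 lower against wild type, and 1 was higher and 6 lower against GFP. Calls over all genes became fewer in that fit too. With wild type 2 or any single rd10 library left out, 9 of the 40 were lower than wild type. Against GFP, 0 were higher and 8 lower without rd10 3, 1 was higher and 9 lower without rd10 1, 1 was higher without GFP 3, and 2 were higher without rd10 2 or GFP 2. The number higher than wild type fell to 0 without wild type 3, rd10 1 or rd10 3, and to 1 without wild type 1 or rd10 2. With single libraries left out, calls over all genes ran from 1269 to 2891 higher and from 1186 to 2530 lower than wild type. Against GFP they ran from 1298 to 2266 higher and from 1305 to 2138 lower. The rod markers fell in the same libraries in which these genes were low, and their part in the result was not tested. In whole retina, fewer cells of a type and less RNA per cell cannot be told apart.

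**Figure D1:**
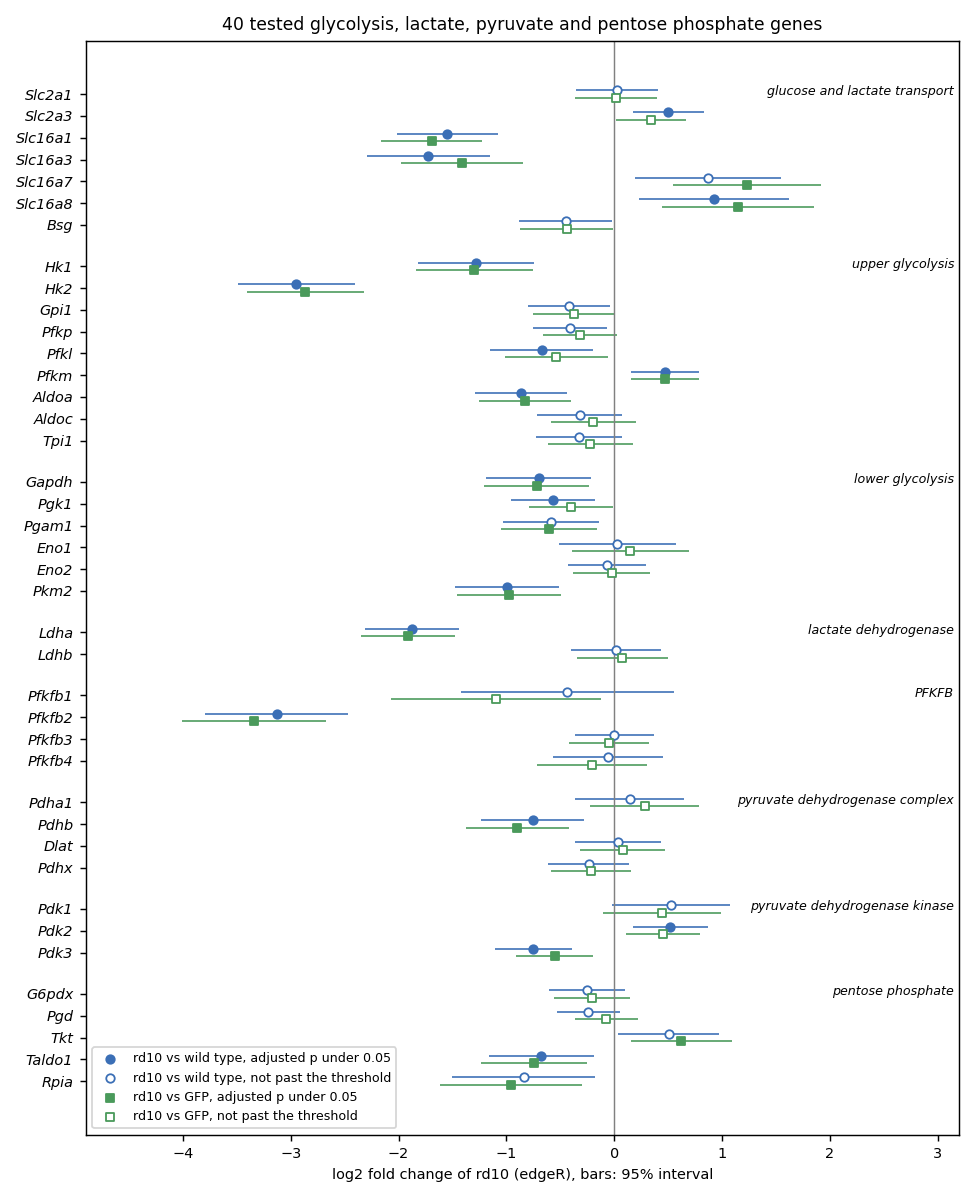
Log2 fold change of rd10 against wild type (circles) and against GFP (squares) for the 40 tested genes, grouped by role. The 95% intervals were derived from the log2 fold change and the F statistic of edgeR's test. Filled symbols passed an adjusted p of 0.05. Hk2 and Pfkfb2 lie farthest to the left in both comparisons, near -3, and Slc16a7 and Slc16a8 farthest to the right.

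Of the glucose transporters, Slc2a1 (GLUT1), the main one of retina and of the blood-retina barrier, measured 269, 396 and 342 CPM in wild type, 349, 354 and 311 in GFP and 315, 368 and 341 in rd10. The groups overlapped, with a log2 fold change of 0.02 ± 0.17 (SE) against wild type and a 95% interval of -0.35 to 0.40. Slc2a3 (GLUT3), the high-affinity transporter of neurons, was 1.41-fold higher in rd10 than in wild type, at 97.8 ± 1.54 (SD, n = 3) against 69.1 ± 10.7 CPM (adjusted p = 0.0293). Against GFP, at 77.3 ± 6.10 CPM, it did not pass (adjusted p = 0.105). The first call was lost when wild type 2, wild type 3 or any single rd10 library was left out (adjusted p up to 0.103). Endothelial markers, which belong to cells rich in Slc2a1, summed to 668 to 958 CPM in rd10 against 216 to 370 in wild type and 214 to 430 in GFP. Of the 10, Kdr alone passed, and their part in these results was not tested.

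Among the monocarboxylate transporters, Slc16a1 and Slc16a3 fell together. Slc16a1 (MCT1, chr3:104442591-104462385 on build mm9), carried by photoreceptors, Müller glia and pigment epithelium, measured 295, 287 and 176 CPM in wild type, 265, 257 and 316 in GFP and 98.3, 81.0 and 79.7 in rd10. All 3 rd10 libraries lay below all 6 normal ones, 2.93-fold lower than wild type (log2 fold change -1.55 ± 0.21, adjusted p = 5.44e-04) and 3.24-fold lower than GFP. Slc16a3 (MCT4, chr11:120809798-120820314), the low-affinity exporter of glycolytic cells, gave 45.8, 71.9 and 35.6 CPM in wild type, 37.0, 46.4 and 40.3 in GFP and 12.6, 16.3 and 17.5 in rd10. It was 3.31-fold lower than in wild type (adjusted p = 9.90e-04) and 2.66-fold lower than in GFP (adjusted p = 0.00291), again without overlap. Wild type 2 had the highest Slc16a3 value, and without that library the difference still passed.

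The other 2 monocarboxylate transporters had their highest values in rd10, at low levels. Slc16a7 (MCT2), the high-affinity importer of neurons, measured 3.43, 3.65 and 2.91 CPM in wild type, 1.90, 3.44 and 2.48 in GFP and 6.08, 5.31 and 6.86 in rd10. It was 2.34-fold higher than in GFP (adjusted p = 0.0148) and did not pass against wild type, where the log2 fold change was 0.87 with an interval of 0.19 to 1.54 (adjusted p = 0.0559). Without rd10 3 the call against GFP was lost (adjusted p = 0.0536). Slc16a8 (MCT3, chr15:79081446-79085178), which in the eye belongs to the pigment epithelium, measured 3.94, 7.60 and 7.32 CPM in wild type, 5.80, 4.93 and 5.43 in GFP and 12.7, 7.96 and 15.1 in rd10. The lowest rd10 library was only just above the highest wild type library, and the 1.90-fold difference from wild type (adjusted p = 0.0497) was lost without any single wild type library, rd10 1, rd10 3 or GFP 3 (adjusted p up to 0.166). Its 2.21-fold difference from GFP (adjusted p = 0.0214) was lost without rd10 1, rd10 3 or GFP 3 (adjusted p up to 0.0850). The 12 markers of pigment epithelium summed to 506 to 693 CPM in rd10, 220 to 649 in wild type and 351 to 534 in GFP. None of the 12 was at 0 in any library, 3 of 11 tested were higher in rd10 than in wild type and 4 of 11 higher than in GFP. Their part in the Slc16a8 difference was not tested.

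Basigin (Bsg), the chaperone of MCT1 and MCT4, measured 743, 1105 and 946 CPM in wild type, 755, 1123 and 899 in GFP and 678, 684 and 686 in rd10. The rd10 libraries were the lowest, but the difference did not pass in either comparison (log2 fold change -0.45, interval -0.88 to -0.02, adjusted p = 0.108 against wild type).

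Hexokinases commit glucose to the cell by phosphorylating it, and both forms among the 41 genes fell, Hk2 far more than Hk1. The hexokinase family gene Hkdc1, described with the other pathway genes below, was higher (log2 fold change 1.73 against wild type and 1.94 against GFP). Hk2 (chr6:82675021-82724448), the form known from photoreceptors, gave 459, 455 and 262 CPM in wild type, 409, 341 and 359 in GFP and 41.1, 51.7 and 59.3 in rd10. The highest rd10 value was 59.3 and the lowest normal value 262. Hk2 was thus 7.73-fold lower than in wild type (log2 fold change -2.95 ± 0.25, adjusted p = 1.31e-05) and 7.29-fold lower than in GFP (adjusted p = 1.48e-05). Hk1, the form found in most neurons, measured 1058, 1294 and 819.8 CPM in wild type, 1264, 772 and 1165 in GFP and 395, 372 and 536 in rd10. The groups did not overlap, and the fall was 2.43-fold against wild type (adjusted p = 0.00392) and 2.46-fold against GFP (adjusted p = 0.00351). With the 4 lens-bearing libraries left out the Hk1 differences no longer passed (log2 fold change -1.19, adjusted p = 0.136, and -1.06, adjusted p = 0.0593), while Hk2 passed in both (-3.20, adjusted p = 0.00142, and -2.81, adjusted p = 0.00121).

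The 3 phosphofructokinase subunits, which assemble into the enzyme of the main control step, did not move alike. Pfkp, the platelet form, measured 519, 533 and 473 CPM in wild type, 550.5, 453 and 421 in GFP and 362, 385 and 398 in rd10. It did not pass (log2 fold change -0.41, interval -0.76 to -0.07, adjusted p = 0.0687 against wild type, and adjusted p = 0.144 against GFP). Pfkl, the liver form, was 1.60-fold lower than in wild type, 312 ± 47.0 against 497 ± 148 CPM (adjusted p = 0.0398), and did not pass against GFP (453 ± 39.2 CPM, adjusted p = 0.0810). That call was lost without wild type 1, wild type 2, GFP 3 or any single rd10 library (adjusted p up to 0.161). Pfkm, the muscle form, rose 1.39-fold against wild type, 278 ± 5.58 against 200.2 ± 21.3 CPM (adjusted p = 0.0314), and 1.38-fold against GFP, at 201 ± 12.7 CPM (adjusted p = 0.0307). Leaving out wild type 1, wild type 3 or any rd10 library ended the first Pfkm call (adjusted p up to 0.105), and leaving out any rd10 or GFP library ended the second (up to 0.0768). The 8 skeletal muscle markers summed to 29.7 to 50.6 CPM in wild type, 27.1 to 62.7 in GFP and 33.6 to 40.6 in rd10. Of the 8, Myh2 and Tnnt3 had no count in any library, 5 could be tested, and 1 of these, Mylpf, was lower in rd10 in both comparisons. The part of muscle transcripts in the Pfkm difference was not tested. Pfkm overlaps Senp1 on the map, and its counts may hold reads of that gene.

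Aldolase A (Aldoa), which splits fructose bisphosphate, gave 3122, 4760.5 and 3425 CPM in wild type, 3209, 4377 and 3438 in GFP and 2064, 2103 and 2038 in rd10. The rd10 libraries lay close together and below every normal library, 1.82-fold under wild type (adjusted p = 0.00887) and 1.78-fold under GFP (adjusted p = 0.0104). Aldoc, the brain form, known from glia, did not pass (553 ± 19.5 CPM in rd10, 689.9 ± 131 in wild type, 634 ± 77.3 in GFP, adjusted p = 0.201 and 0.421). Phosphoglucose isomerase (Gpi1) measured 1442, 2057 and 1764 CPM in wild type, 1826, 1740.3 and 1530.0 in GFP and 1205, 1328 and 1405 in rd10. Those rd10 values were the lowest, but Gpi1 did not pass (log2 fold change -0.42, interval -0.80 to -0.04, adjusted p = 0.0906 against wild type). Triosephosphate isomerase (Tpi1) measured 845, 1099 and 1017 CPM in wild type, 759, 1105 and 889 in GFP and 827, 736 and 799 in rd10, and did not pass (adjusted p = 0.195 and 0.368). With the 4 lens-bearing libraries left out Aldoa no longer passed (log2 fold change -0.61, adjusted p = 0.348, against wild type, and -0.93, adjusted p = 0.0602, against GFP).

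The PFKFB enzymes make and break fructose 2,6-bisphosphate, the strongest activator of phosphofructokinase, and 1 of the 4 fell. Pfkfb2 (chr1:132585620-132625830) measured 619, 376 and 298 CPM in wild type, 611, 359 and 526 in GFP and 43.5, 47.9 and 56.0 in rd10. The normal libraries spread about as widely in wild type as in GFP, and all 6 lay far above the 3 rd10 libraries. The fall was 8.77-fold against wild type (log2 fold change -3.13 ± 0.30, adjusted p = 3.73e-05) and 10.2-fold against GFP (adjusted p = 2.33e-05), and no gene among the 40 fell further. Pfkfb2 overlaps Yod1 on the opposite strand by 4731 bases, and Yod1 held 35 to 164 counts per library. Pfkfb3, the form with the highest kinase activity, measured 46.2 ± 4.80 CPM in rd10, 46.2 ± 3.00 in wild type and 47.8 ± 8.60 in GFP. Its interval against wild type was -0.37 to 0.37. Pfkfb4 (12.2 ± 1.96, 12.8 ± 2.86 and 14.1 ± 1.84 CPM in the same order) and Pfkfb1 (1.22 ± 0.334, 1.66 ± 0.284 and 2.64 ± 0.985 CPM) did not pass either.

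In lower glycolysis, pyruvate kinase showed the widest gap. The row named Pkm2 holds the gene Pkm with both of its splice forms, PKM1 and PKM2, which gene counts do not separate. It measured 3989, 6233 and 3568 CPM in wild type, 4599.6, 4025 and 4975 in GFP and 2266, 2069 and 2589 in rd10. Pkm2 was 1.99-fold lower than in wild type (adjusted p = 0.00784) and 1.96-fold lower than in GFP (adjusted p = 0.00830), with no overlap. With the 4 lens-bearing libraries left out it no longer passed (log2 fold change -0.72, adjusted p = 0.281, and -0.89, adjusted p = 0.0685).

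Gapdh, which makes the first NADH of the pathway, measured 939.9, 1600.5 and 1334 CPM in wild type, 1083, 1616 and 1235 in GFP and 776, 747 and 863 in rd10. It was 1.62-fold lower than in wild type (adjusted p = 0.0373) and 1.65-fold lower than in GFP (adjusted p = 0.0314). Those calls were lost without wild type 2, wild type 3, GFP 3 or any rd10 library in the first (adjusted p up to 0.132) and without GFP 2, GFP 3 or any rd10 library in the second (up to 0.0986). Pgk1, the first ATP-making step, measured 837, 1048 and 739 CPM in wild type, 701, 871 and 759.6 in GFP and 629.8, 603 and 536 in rd10. It was 1.48-fold lower than in wild type (adjusted p = 0.0346), a call lost without wild type 1, wild type 2, GFP 3 or any rd10 library (adjusted p up to 0.126), and did not pass against GFP (adjusted p = 0.107). Phosphoglycerate mutase (Pgam1) gave 827, 1247 and 768 CPM in wild type, 837, 1010.4 and 1035 in GFP and 627, 585 and 681 in rd10. It passed only against GFP, 1.52-fold lower (adjusted p = 0.0438), and lost that call without GFP 2, GFP 3 or any rd10 library (up to 0.133). Its log2 fold changes were -0.59 ± 0.20 against wild type (adjusted p = 0.0518) and -0.61 ± 0.20 against GFP.

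Enolase is the exception in this stretch. Eno1, the general form, measured 701, 1364 and 736 CPM in wild type, 727, 918 and 934 in GFP and 959, 904 and 994 in rd10. The groups overlapped, and the log2 fold change against wild type was 0.03 with an interval of -0.51 to 0.57. Without wild type 2, the highest library, it was 0.42 and did not pass. Eno2, the neuronal form, measured 675 ± 33.2 CPM in rd10, 707 ± 86.1 in wild type and 687 ± 87.4 in GFP and did not pass (adjusted p = 0.783 and 0.920). RefSeq names 2 pseudogene-like copies of Aldoa, 3 of Gapdh, 3 of Pgk1, 2 of Pgam1, 3 of Ldha and 1 of Ldhb. How reads with several matches were counted is not given in the sources used here, so the levels of these genes are uncertain to that extent.

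Lactate dehydrogenase turns pyruvate into lactate and regenerates NAD+. Ldha (chr7:54101174-54110997), the subunit that favours lactate, measured 1236, 1608 and 1142 CPM in wild type, 1126, 1669.7 and 1292 in GFP and 357, 364 and 365 in rd10. The 3 rd10 libraries differed by less than 10 CPM, and none of the 6 normal libraries came below 1126. Ldha was 3.67-fold lower than in wild type (log2 fold change -1.88 ± 0.20, adjusted p = 7.86e-05) and 3.76-fold lower than in GFP (adjusted p = 6.56e-05). Ldhb, the subunit that favours pyruvate, measured 271, 256 and 234 CPM in rd10, 228, 272 and 252 in wild type and 210.4, 313 and 199 in GFP. All 3 groups overlapped, with a log2 fold change of 0.02 and an interval of -0.40 to 0.44 against wild type.

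**Figure D2:**
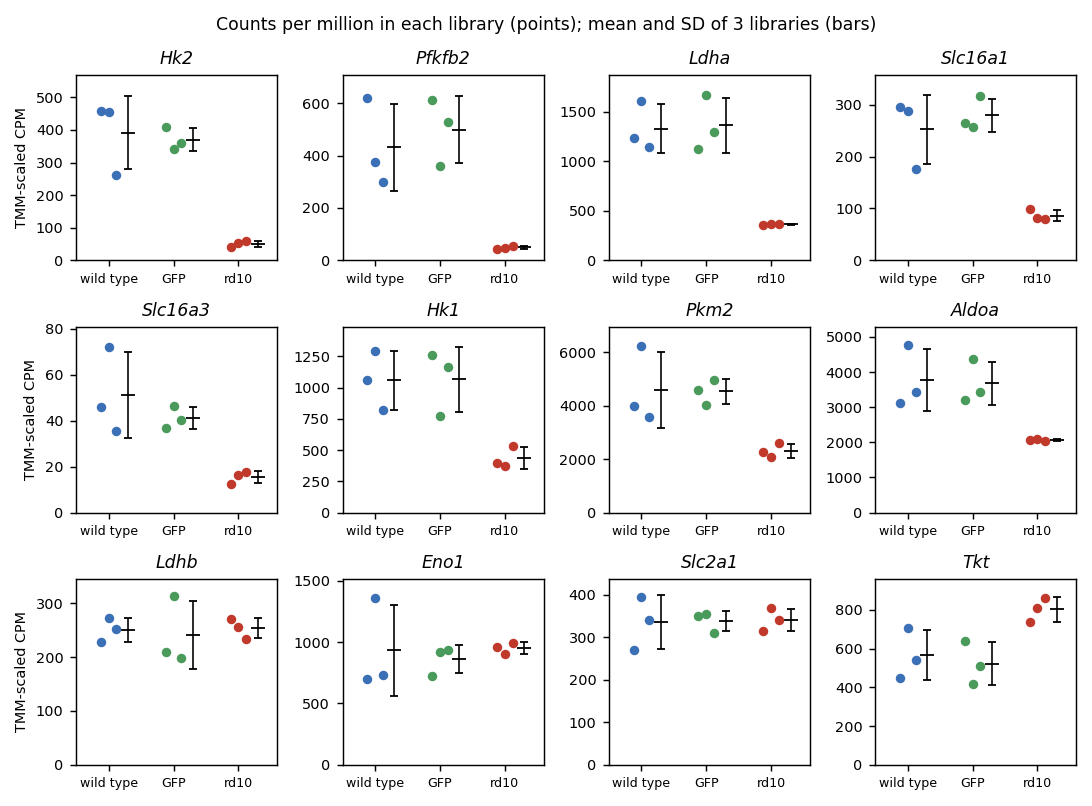
TMM-scaled CPM of 12 genes in each library (points, on linear axes from 0), with the mean and SD of 3 libraries per group beside them. For Hk2, Pfkfb2, Ldha, Slc16a1, Slc16a3, Hk1, Pkm2 and Aldoa the rd10 points lie below all normal points, while those of Ldhb, Eno1 and Slc2a1 lie among them and those of Tkt above.

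The pyruvate dehydrogenase complex oxidises pyruvate in mitochondria, and of its 4 subunit genes here 1 fell. Pdhb, a subunit of the decarboxylase, measured 149, 177 and 209 CPM in wild type, 162, 262 and 167 in GFP and 107, 118 and 91.1 in rd10. It was 1.69-fold lower than in wild type (adjusted p = 0.0254) and 1.87-fold lower than in GFP (adjusted p = 0.0115). The first call was lost without wild type 2, wild type 3 or any rd10 library (adjusted p up to 0.1003), the second without rd10 3 (0.0507). Pdha1, the partner subunit that the kinases phosphorylate, measured 76.5 ± 7.36 CPM in rd10, 69.3 ± 9.69 in wild type and 62.7 ± 20.2 in GFP. Dlat, the acetyltransferase core, measured 67.6 ± 12.1, 66.0 ± 8.94 and 64.0 ± 8.82 CPM, and Pdhx, its binding protein, 37.4 ± 2.26, 44.2 ± 7.54 and 43.5 ± 4.13. These 3 genes did not pass in either comparison (adjusted p between 0.311 and 0.908).

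The kinases that switch the complex off differed among themselves. Pdk2 measured 92.9, 124 and 96.7 CPM in wild type, 118, 103 and 108 in GFP and 142, 141 and 167 in rd10. It was 1.43-fold higher than in wild type (adjusted p = 0.0312), which was lost without wild type 1, wild type 3 or any rd10 library (adjusted p up to 0.104), and 1.37-fold higher than in GFP with an adjusted p of 0.0501. Pdk3 fell 1.68-fold against wild type, 33.2 ± 2.88 against 56.0 ± 8.22 CPM (adjusted p = 0.00718), and 1.47-fold against GFP, at 48.8 ± 4.43 CPM (adjusted p = 0.0268). Its call against GFP was lost without GFP 3 or any rd10 library (adjusted p up to 0.101), and both were lost without the libraries with lens transcripts (0.324 and 0.0922). Pdk1, a kinase induced by low oxygen, measured 59.3, 56.5 and 49.5 CPM in rd10, 44.1, 47.0 and 23.9 in wild type and 46.0, 31.6 and 44.1 in GFP and did not pass (log2 fold change 0.52, interval -0.02 to 1.07, adjusted p = 0.135 against wild type). Pdk4, the kinase of fasting muscle, stayed at or below 1.03 CPM in every library and was not tested.

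In the pentose phosphate pathway the NADPH-making oxidative steps did not pass and the 3 enzymes that rearrange sugars split. Glucose 6-phosphate dehydrogenase (G6pdx), the entry step, measured 119, 163 and 136 CPM in wild type, 131, 131 and 143 in GFP and 118, 103 and 131 in rd10. Its gene body lies within that of Ikbkg on the opposite strand, so reads of the 2 genes may be mixed. Phosphogluconate dehydrogenase (Pgd) measured 85.1, 104 and 88.6 CPM in wild type, 87.1, 78.7 and 80.9 in GFP and 78.9, 75.4 and 80.3 in rd10. Adjusted p was 0.256 and 0.350 for G6pdx and 0.193 and 0.699 for Pgd.

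Transketolase (Tkt) measured 449.5, 705 and 542 CPM in wild type, 638, 415 and 512 in GFP and 736, 807 and 863 in rd10. The rd10 libraries lay above all 6 normal ones, 1.54-fold over GFP (adjusted p = 0.0470) and 1.42-fold over wild type without passing (adjusted p = 0.0966). Its call was lost without wild type 3, GFP 2, GFP 3 or any rd10 library (adjusted p up to 0.122). Transaldolase (Taldo1) went down, from 113, 157 and 149.6 CPM in wild type and 114, 198 and 127 in GFP to 93.3, 92.6 and 76.5 in rd10. It was 1.60-fold lower than in wild type (adjusted p = 0.0425) and 1.67-fold lower than in GFP (adjusted p = 0.0284). Leaving out wild type 2, wild type 3, GFP 3 or any rd10 library ended the first call (up to 0.148), and leaving out GFP 2 or any rd10 library the second (up to 0.101). Ribose 5-phosphate isomerase (Rpia), which makes the ribose of nucleotides, measured 11.8, 12.5 and 14.2 CPM in wild type, 11.1, 20.8 and 10.005 in GFP and 6.16, 8.93 and 6.41 in rd10. It was 1.94-fold lower than in GFP (adjusted p = 0.0338), lost without rd10 1, rd10 3 or GFP 2 (up to 0.113), and did not pass against wild type (adjusted p = 0.0570). The markers of Müller glia given above were higher in the libraries in which Tkt, Pfkm and Pdk2 were high, with 9 of 10 passing. So were those of amacrine cells (6 of 6 passing), bipolar cells (6 of 9), ganglion cells (4 of 8) and microglia (7 of 10 against wild type and 9 of 10 against GFP). Of 4 horizontal cell markers 2 passed as higher, while their sum overlapped between groups. In rd10 the amacrine list summed to 1335 to 1397 CPM and the bipolar list to 2461 to 3023, beside 840 to 941 and 1359 to 1652 in the normal libraries. The part of these cell types was not tested.

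Ratios of isoenzyme counts within a library do not depend on how libraries are scaled. For 11 pairs the 3 rd10 libraries were compared with the 6 normal ones by a two-sided exact permutation test, whose smallest possible p is 0.0238. A ratio also carries the lengths of both transcripts, so only its change is read, and these ratios rest on the same counts as the fits above. In 8 of 11 pairs rd10 did not overlap the normal libraries, each with an exact permutation p of 0.0238 (0.0327 after Benjamini-Hochberg adjustment over the 11). Over all pairs of tested genes, 38.0% of such ratios did not overlap between rd10 and the normal libraries.

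Ldha counts were 4.54 to 6.49 times those of Ldhb in the normal libraries and 1.32 to 1.56 times in rd10, a 3.83-fold lower ratio. The Hk2 to Hk1 ratio went from 0.308 to 0.441 down to 0.104 to 0.139, 3.07-fold lower. Slc16a1 to Slc16a7 fell from 59.5 to 136 down to 11.6 to 16.1, 6.29-fold lower, and Pfkfb2 to Pfkfb3 from 6.71 to 12.5 down to 1.03 to 1.10, 9.01-fold lower. Both Pfkfb genes thus gave nearly equal counts in each rd10 library. Smaller shifts were seen for Pfkl to Pfkm (2.10-fold lower), Pfkp to Pfkm (1.78-fold lower) and Aldoa to Aldoc (1.50-fold lower), and the Pdk2 to Pdk3 ratio was 2.20-fold higher. Slc2a1 to Slc2a3 overlapped and did not pass after adjustment (0.0476 by the exact permutation test, 0.0582 adjusted), and Eno1 to Eno2 and Pdk1 to Pdk2 overlapped as well (exact permutation p = 0.333 and 0.857).

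**Figure D3:**
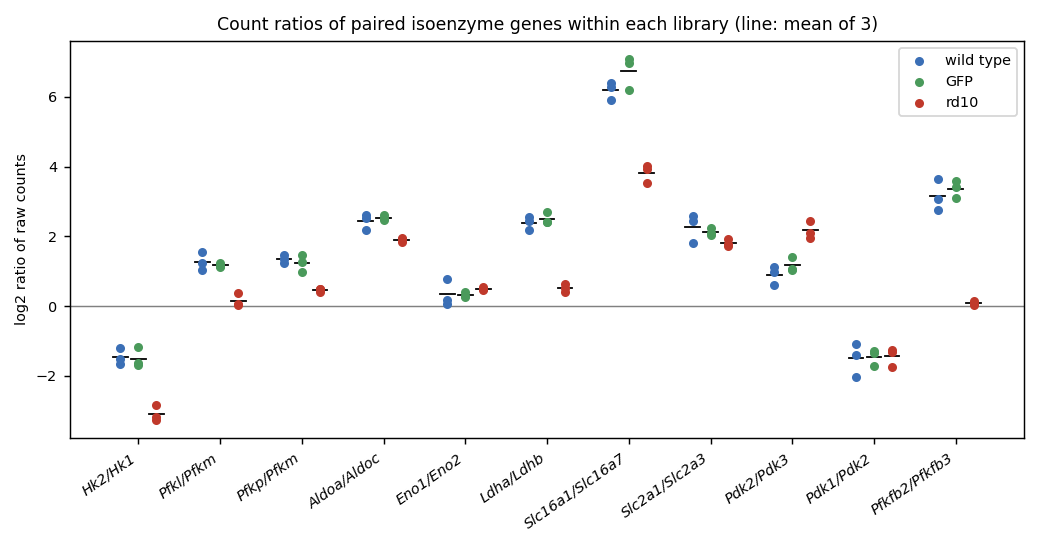
Log2 ratio of raw counts of 11 isoenzyme pairs in each library, with a line at the mean of 3 libraries. The rd10 points of Ldha/Ldhb, Hk2/Hk1, Slc16a1/Slc16a7 and Pfkfb2/Pfkfb3 lie below all 6 normal points, those of Pdk2/Pdk3 above, and those of Eno1/Eno2 and Pdk1/Pdk2 among them.

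The 41 genes together held 2.03%, 2.70% and 2.16% of counts in wild type, 2.13%, 2.27% and 2.19% in GFP and 1.80%, 1.79% and 1.84% in rd10. On the scale of mean CPM per kilobase of transcript, Aldoa, Pkm2 and Gapdh held ranks 1, 2 and 3 in every group, at 2433, 1890 and 909 in wild type and 1335, 949 and 560.0 in rd10. Their order was stable, but in wild type the gap between Aldoa and Pkm2 was smaller than the spread over its libraries (SD 563 and 589). Ldha was the fourth in both normal groups, at 732 ± 136 in wild type and 751 ± 154 in GFP, and stood at rank 12 of 41 in rd10, at 200 ± 2.32. In rd10 its neighbours were Eno2 at 242 ± 11.9 and Aldoc at 199 ± 7.01, the latter within the spread of Ldha, and Ldhb stood at 195 ± 14.2. Hk2 went from 71.1 ± 20.4 in wild type, rank 22, to 9.19 ± 1.66 in rd10, rank 34, and Pfkfb2 from 97.4 ± 37.9, rank 21, to 11.1 ± 1.43, rank 31. Both were then close to Pfkfb3, at 9.62 ± 1.000 in rd10. Eno1 moved from rank 10 to 5 and Tkt from 15 to 10 in rd10.

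**Figure D4:**
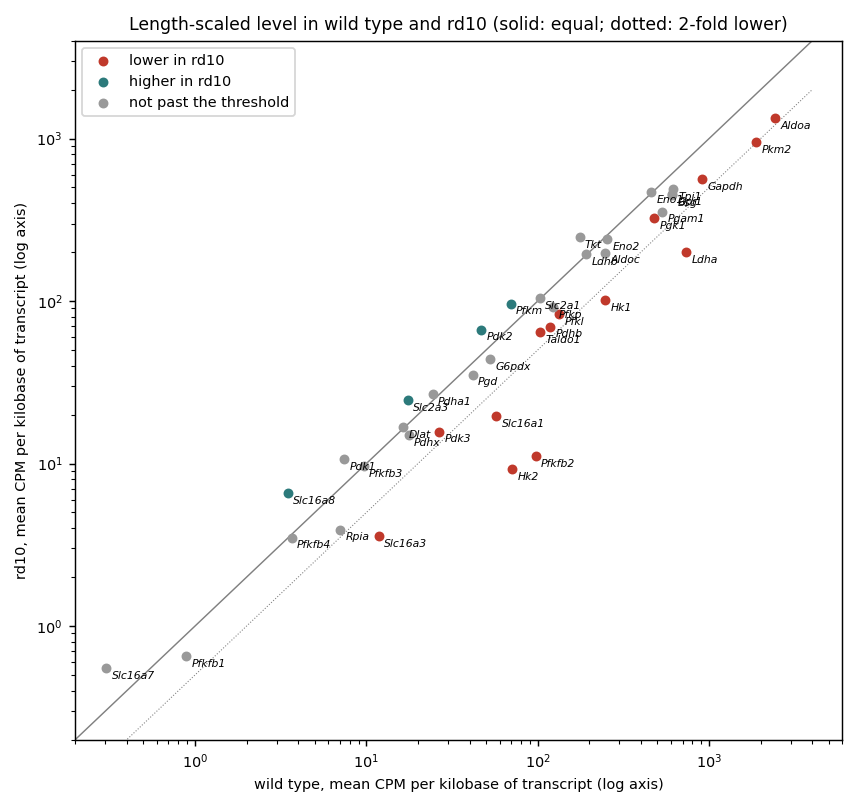
Mean CPM per kilobase of transcript in wild type (horizontal) and rd10 (vertical) on log axes for the 40 tested genes, coloured by their call against wild type. The solid line marks equal levels and the dotted line a 2-fold lower level in rd10. Hk2, Pfkfb2, Ldha, Slc16a1, Slc16a3 and Hk1 lie below the dotted line.

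Another 87 genes of sugar and monocarboxylate transport, gluconeogenesis, glycogen, the mitochondrial pyruvate carrier, the malate-aspartate shuttle and their regulators were read beside the 41. Of 71 tested, 16 were higher and 7 lower in rd10 than in wild type (all genes: 14.5% and 13.9%), and 20 were higher and 7 lower than in GFP (15.2% and 15%). The number higher than wild type fell to 7 without wild type 1, 8 without rd10 1 or rd10 3, 9 without wild type 3 and 10 without wild type 2, and the number lower fell to 4 without wild type 3. Against GFP, 10 were higher without rd10 1, 11 without rd10 3 or GFP 3 and 12 without rd10 2. Higher calls over all genes also became fewer without each of these libraries. The 3 of the 71 with the smallest adjusted p were lower. Nxnl1, which encodes rod-derived cone viability factor, a protein secreted by rods that promotes glucose uptake by cones through GLUT1 and basigin, measured 357, 410.4 and 385 CPM in wild type, 314, 601 and 362 in GFP and 9.40, 11.7 and 8.70 in rd10. That is 38.7-fold lower than wild type (log2 fold change -5.27 ± 0.28, adjusted p = 7.09e-07). Its paralogue Nxnl2 was 24.1-fold lower (84.8 ± 6.11 to 3.52 ± 1.66 CPM) and the monocarboxylate transporter family gene Slc16a6 11.8-fold lower (287 ± 42.01 to 24.3 ± 4.06 CPM). Tigar, a bisphosphatase that slows glycolysis, was 2.21-fold lower (adjusted p = 0.00101). Those 4 also passed without the libraries with lens transcripts.

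Of the other 8 genes among the 12 with the smallest adjusted p, 7 were higher. They were Gbe1 (glycogen branching enzyme, 1.91-fold), the hexokinase family gene Hkdc1 (3.31-fold), Pgm2l1 (1.83-fold), Gpd2 (mitochondrial glycerol phosphate dehydrogenase, 2.06-fold), Slc2a13 (a myo-inositol transporter, 1.95-fold), embigin (Emb, a relative of basigin that also carries monocarboxylate transporters, 1.66-fold) and Slc16a9 (2.21-fold). Hkdc1 measured 14.2, 9.23 and 8.02 CPM in wild type, 10.7, 3.78 and 12.4 in GFP and 29.9, 35.8 and 38.4 in rd10, and Emb 34.2 ± 3.36, 37.3 ± 6.97 and 56.9 ± 4.26. Each of the 7 passed against wild type with any single library left out. Against GFP all 7 passed too, Pgm2l1, Emb and Slc16a9 not with every library left out in turn. Pgm2l1 was lost without rd10 1, rd10 2, GFP 1 or GFP 3 (adjusted p up to 0.0804). Emb was lost without rd10 1, rd10 2, GFP 2 or GFP 3 (up to 0.0861) and Slc16a9 without rd10 3 or GFP 3 (up to 0.0563). Against wild type, the fit without the libraries with lens transcripts could not settle these calls, as it holds 1 wild type library. In it the log2 fold changes of the 7 ran from 0.57 (Pgm2l1) to 1.53 (Slc16a9) against wild type. Against GFP they ran from 0.59 (Pgm2l1) to 2.06 (Hkdc1) in that fit, where of the 7 only Hkdc1 and Slc2a13 passed. The eighth, the muscle enolase Eno3, was lower, at 31.9, 27.7 and 39.3 CPM in wild type, 22.7, 37.6 and 19.9 in GFP and 16.3, 16.9 and 16.2 in rd10. All rd10 values lay below the normal ones, 2.00-fold under wild type (adjusted p = 0.0131) and without passing against GFP (adjusted p = 0.0538). The call against wild type was lost without wild type 3 or rd10 1 (adjusted p up to 0.0503), under scaling by library totals, and in the fit that omits the 4 lens-bearing libraries (0.251).

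Dihydrolipoamide dehydrogenase (Dld), shared by the pyruvate dehydrogenase complex and others, measured 98.5 ± 17.3 CPM in rd10, 141 ± 4.49 in wild type and 141 ± 21.999 in GFP. It passed at 1.44-fold lower (adjusted p = 0.0447, and 0.0435 against GFP), and was lost against wild type without any single wild type or rd10 library or GFP 3 (adjusted p up to 0.179) and against GFP without any library but GFP 1 (up to 0.161). The mitochondrial pyruvate carrier genes Mpc1 (81.5 ± 13.2, 78.0 ± 24.2 and 76.3 ± 26.8 CPM in rd10, wild type and GFP) and Mpc2 (38.4 ± 5.90, 43.4 ± 10.4 and 49.5 ± 28.1) did not pass. Neither did Txnip, which restrains glucose uptake (15.4 ± 0.587, 13.8 ± 3.17 and 12.5 ± 1.20 CPM), nor Hif1a, the oxygen-sensitive subunit of the hypoxia-inducible factor, which binds the response core marked in the promoters above (614 ± 28.7, 741 ± 167 and 747 ± 234 CPM, adjusted p = 0.435 and 0.403).

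Between the 2 normal groups no difference passed. Comparing GFP with wild type, edgeR's test called 0 of the 40 genes, at a background of 0.0% higher and 0.0% lower over all genes. An unadjusted p under 0.05 was found for 214 of 14300 genes (1.50%) and for 0 of the 40, and DESeq2 called 1 gene, not one of the 40. Their log2 fold changes lay between -0.36 and 0.67. If no gene differed, a share of 0.05 would be expected under that unadjusted limit. The test was thus sparing here, and 0 calls do not show that the groups are alike.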

How the data were processed

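Polyadenylated RNA of whole mouse retina had been sequenced by the authors, with random hexamer priming per the labels' protocols, in 9 libraries of 3 groups. The deposited files held 1 raw read count per gene and library for 21769 genes, placed on the mouse build mm9 per the submitters' processing notes. Aligner, counting program, annotation and strand setting are not given in the sources used here. Positions are those of the files with 1 added to each start, and promoters are RefSeq's on GRCm38.p6.

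In edgeR 4.0.16 (R 4.3.3), filterByExpr (minimum count 10, minimum total 15) kept 14300 genes. After TMM scaling all libraries entered a single fit with 1 mean for each group, pairs of groups were tested with the quasi-likelihood F-test, and p-values were adjusted by Benjamini-Hochberg over all genes tested, with a threshold of 0.05. CPM values are TMM-scaled, and CPM per kilobase uses the longest protein-coding transcript of GENCODE. Isoenzyme ratios are log2 of raw counts with 0.5 added. Replicates are described as biological, and chi-square per degree of freedom between them was 13.0 to 76.1. Same-numbered libraries did not deviate together (correlations from -0.37 to 0.36), so no pairing was used. All 41 genes are accounted for. Of the other pathway genes, up to 12 with the smallest adjusted p and 6 fixed genes were named. From the lists, 1 rod marker and 1 other pathway gene are not reported here. The genes and lists were chosen with earlier results of these data known. Alternatives were other scalings, no filter, a length correction, DESeq2 1.42.0, a replicate block, only the groups compared, and libraries left out.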

Additional observations from a re-analysis of the deposited data

Results flagged for a closer look

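In the 6 libraries labelled normal, the value of wild type 2 stood far above the rest for 3 of the 41 genes, its gap to the next library being past Dixon's 95% limit for 6 samples. Slc16a3 measured 71.9 CPM there, and the next library 46.4. Pfkl measured 665 CPM, and the next library 476. Eno1 measured 1364 CPM, and the next library 934. Chance alone flags about 1 in 20 such groups. Wild type 2 is also a library with lens transcripts, and the part of these in the 3 values was not tested.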

How the results depend on the processing

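Of the 18 genes that passed against wild type, 5 (Hk2, Pfkfb2, Ldha, Slc16a1 and Slc16a3) passed under each of the alternatives run, and the same 5 did so against GFP. No gene that passed changed direction under any of them. In each comparison 22 genes did not pass, and 16 of those never passed under any alternative in that comparison. Where a value below differs, the cause was not tested, except that leaving out libraries also leaves fewer samples. With library totals, the genes higher and lower in rd10 numbered 7 and 8 against wild type and 7 and 8 against GFP (all genes: 3603 and 1079, 4040 and 1055). With the upper quartile, 9 were lower than in GFP. Without the 4 libraries with lens transcripts, an alternative chosen after seeing the data in which the single wild type library is assumed to vary like the other groups, they numbered 0 and 5 against wild type and 1 and 6 against GFP (other pathway genes: 0 and 4 against wild type and 2 higher than GFP; all genes: 86 and 457, 876 and 970). Without wild type 3 and GFP 2, 1 was higher than wild type and 2 higher than GFP. With the length trend removed, 11 and 13 other pathway genes were lower. DESeq2 called 1 gene lower in GFP than in wild type.

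With single libraries left out, 0 to 6 of the 41 were higher and 9 to 16 lower than wild type, and 0 to 5 higher and 8 to 15 lower than GFP. The other pathway genes gave 7 to 19 higher and 4 to 10 lower than wild type, and 10 to 20 higher than GFP. All genes gave 1269 to 2891 higher and 1186 to 2530 lower than wild type, 1298 to 2266 higher and 1305 to 2138 lower than GFP, and 0 to 4 higher in GFP than in wild type. The rd10 difference of the log2 ratio ran from 0.11 to 0.26 for Eno1 to Eno2, from -0.48 to -0.32 for Slc2a1 to Slc2a3 and from -0.078 to 0.19 for Pdk1 to Pdk2.

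With the replicate number as a block, 1 of the 41 was higher than wild type and 2 were higher than GFP, and Pfkfb3 changed sign to 0.0058. The numbers do not mark a shared source.

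Changes of sign were confined to genes that did not pass. In log2 fold changes against wild type, library totals gave Eno2 0.22, Pfkfb3 0.28, Pfkfb4 0.22, Pdhx 0.053, G6pdx 0.037, Pgd 0.047, Mpc2 0.10 and Hif1a 0.022. Against GFP they gave Pfkp 0.0090, Aldoc 0.13, Tpi1 0.11, Eno2 0.30, Pfkfb3 0.27, Pfkfb4 0.12, Pdhx 0.11, G6pdx 0.12, Pgd 0.25 and Hif1a 0.041. The upper quartile gave Eno2 0.0099, Pfkfb3 0.078 and Pfkfb4 0.018 against wild type and Eno2 0.078, Pfkfb3 0.055 and Pgd 0.032 against GFP. Pfkfb3 against wild type was 0.020 with DESeq2, 0.021 with its size factors and 0.017 without the filter. The length correction gave Dlat -0.065 and Mpc2 0.098 against wild type and Slc2a1 -0.040 and Dlat -0.036 against GFP, and Slc2a1 was -0.0092 with only rd10 and GFP in the fit. Without wild type 3 and GFP 2, Eno1 was -0.12, Dlat -0.080 and Mpc2 0.016 against wild type, and Eno2 0.054, Dlat -0.0041 and Mpc2 0.19 against GFP. Without the libraries with lens transcripts, Aldoc was 0.043, Eno2 0.14, Dlat -0.15 and G6pdx 0.060 against wild type, and Slc2a1 -0.023, Ldhb -0.024, Pfkfb3 0.10, Pfkfb4 8.0e-04, Dlat -0.026 and Mpc1 -0.10 against GFP. With single libraries left out, the ranges against wild type were -0.082 to 0.17 for Slc2a1, -0.12 to 0.42 for Eno1, -0.12 to 0.039 for Eno2, -0.017 to 0.10 for Ldhb, -0.048 to 0.095 for Pfkfb3, -0.22 to 0.093 for Pfkfb4, -0.079 to 0.20 for Dlat, -0.14 to 0.27 for Mpc1 and -0.32 to 0.016 for Mpc2. Against GFP they were -0.031 to 0.076 for Slc2a1, -0.11 to 0.059 for Eno2, -0.031 to 0.31 for Ldhb, -0.13 to 0.12 for Pfkfb3, -0.046 to 0.42 for Mpc1 and -0.63 to 0.19 for Mpc2.

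The depth of 9597635 to 12149448 counts limits the low genes most: Pdk4, Pfkfb1 and Slc16a7 rested on few counts per library. The libraries come from 3 pools of retinae per group, reads of overlapping genes were not separated, and age differed with genotype.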
